A study of Homo sapiens with 22 samples.

Results

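This report follows 10 genes that encode the GATA and TAL1 transcription factors of red cell precursors and the proteins that bind with them: GATA1, GATA2, TAL1, LYL1, TCF3, LMO2, LDB1, ZFPM1, RUNX1 and CBFA2T3. They were taken by symbol, not by their values, from the 59087 gene names in each of 2 tables of RNA-Seq read counts. All 10 passed the filter on low counts, as did 13236 names of the H2A.X table and 13879 of the BAZ1B table. Every library came from HUDEP-2, an immortalized line of human umbilical cord blood origin that grows as erythroid precursors and matures in culture. The H2A.X experiment held 2 wild type (WT) and 3 H2A.X knockout (KO) subclones, and the BAZ1B experiment held 3 WT and 3 BAZ1B KO subclones. Each subclone was sampled at day 0 (D0), in expansion medium with stem cell factor, erythropoietin, dexamethasone and doxycycline, and at day 6 (D6) of maturation, in medium that kept stem cell factor, erythropoietin and doxycycline but no dexamethasone. In the H2A.X KO both copies of the coding region of the histone variant gene were deleted with a pair of CRISPR/Cas9 guides, and in the BAZ1B KO the first exon of the kinase gene was deleted in the same way. WT subclones had passed through the same sorting and plating. A KO subclone descends from 1 cell of 1 line, so that the spread between replicates holds differences between subclones. With 2 or 3 subclones per genotype, such differences and the effect of a deletion cannot be fully told apart in KO against WT.

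GATA factors bind the DNA word GATA through zinc fingers. GATA2 is active in haematopoietic stem and progenitor cells and in mast cells, and in erythroid precursors its place on shared elements is taken by GATA1, an exchange known as the GATA switch. GATA1 acts with a complex in which TAL1 or its paralogue LYL1 pairs with an E protein such as TCF3 and is joined through LMO2 and LDB1, while ZFPM1 (FOG1) binds the GATA finger directly and CBFA2T3 (ETO2) and RUNX1 adjust whether the complex represses or activates.

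The promoter windows shown here are those of the paralogous pair TAL1 and LYL1 and of both GATA genes. They were read from the RefSeq promoter table on GRCh38.p14, which held 11 windows of 300 bases for 9 of the 10 genes; LMO2 is named only. Each is written 5′ to 3′ on the strand of the gene and ends 50 bases after the annotated start, and capitals mark the word AGATAA, its variant TGATAA, the word AGATAG or the word TGATAG, on either strand.
TAL1, chr1:47232286-47232585, minus strand: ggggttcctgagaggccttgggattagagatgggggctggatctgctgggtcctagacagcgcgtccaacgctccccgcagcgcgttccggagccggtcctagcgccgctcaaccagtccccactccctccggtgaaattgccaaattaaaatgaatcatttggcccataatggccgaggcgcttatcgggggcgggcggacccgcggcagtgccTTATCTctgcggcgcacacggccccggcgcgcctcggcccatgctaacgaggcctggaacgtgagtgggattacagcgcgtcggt
LYL1, chr19:13102809-13103108, minus strand: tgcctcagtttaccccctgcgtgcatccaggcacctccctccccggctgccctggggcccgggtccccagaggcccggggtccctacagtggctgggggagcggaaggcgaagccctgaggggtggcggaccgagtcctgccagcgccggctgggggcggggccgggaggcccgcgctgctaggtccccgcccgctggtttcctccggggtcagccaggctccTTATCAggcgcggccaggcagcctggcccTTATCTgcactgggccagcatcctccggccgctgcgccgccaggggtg
GATA1, chrX:48786340-48786639, plus strand: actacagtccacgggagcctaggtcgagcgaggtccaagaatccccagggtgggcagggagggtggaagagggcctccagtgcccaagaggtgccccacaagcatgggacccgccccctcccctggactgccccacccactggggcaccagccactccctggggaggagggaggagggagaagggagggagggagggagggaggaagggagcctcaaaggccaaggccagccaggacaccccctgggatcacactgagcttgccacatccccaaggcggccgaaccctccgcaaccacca
GATA2, chr3:128493152-128493451, minus strand: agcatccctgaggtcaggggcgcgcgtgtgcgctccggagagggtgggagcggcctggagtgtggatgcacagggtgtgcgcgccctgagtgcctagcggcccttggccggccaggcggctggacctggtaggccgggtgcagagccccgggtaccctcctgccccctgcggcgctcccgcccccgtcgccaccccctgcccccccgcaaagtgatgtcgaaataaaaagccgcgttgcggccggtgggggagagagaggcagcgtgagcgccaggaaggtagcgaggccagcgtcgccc
The TAL1 window held 1 such word, which began at base 216 counted from the 5′ end of the window, and the LYL1 window held 2, at bases 224 and 253. No other window of the 9 genes held one, including the second windows of TAL1 and GATA2. Of all 34796 promoter windows of this length, 25.0% held at least 1 of the 4 words and 6.12% held 2 or more. The E-box words CAGCTG or CAGATG were found once, as CAGCTG in the second GATA2 window, and stood in 29.8% of all windows. The RUNX word TGTGGT was found 3 times in the second TAL1 window, against 13.1% of all windows with at least 1 and 1.31% with 2 or more. These are matches of letters in short windows and not measured binding.

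Libraries of the H2A.X experiment held 11910141 to 21013004 counts and those of the BAZ1B experiment 33199408 to 41273244, and the fewest reads of any of the 10 genes in any library was 245. The biological coefficient of variation was 0.239 for the first and 0.0865 for the second table, so that smaller differences were resolved in the second. H2AFX, the gene of H2A.X, stood at 89.7 to 136 CPM (counts-per-million of the TMM-scaled library) in its WT libraries and at 17.5 to 59.8 CPM in its KO libraries. BAZ1B stood at 242 to 264 CPM in its WT and 174 to 222 CPM in its KO libraries, where the exons past the first could still be read. Erythroid markers (HBB, ALAS2, SLC4A1, EPB42, AHSP and TFRC among them, 8 of 8 detected) summed to 6097 CPM or more in every library. Of 8 megakaryocyte markers at most 2 had over 3 reads in any group, PF4 and PPBP had no read, the 8 summed to 1.48 to 75.7 CPM, and the 6 myeloid markers summed to at most 6.37 CPM and the 3 lymphoid markers to at most 0.52 CPM.

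The WT libraries of the H2A.X experiment stood apart at D0 from the other D0 groups, and every H2A.X KO against WT value below rests on them. Their erythroid markers summed to 21996 to 29202 CPM, against 11954 to 15580 CPM in H2A.X KO, 6097 to 6804 CPM in BAZ1B WT and 7196 to 7677 CPM in BAZ1B KO at D0. The tables were normalized separately and these levels were not tested across them. In addition, 5 of the 6 H2A.X KO libraries carry a column name marking them as redone, all but replicate 3 at D6, and no WT library does, so that at D0 this mark and the genotype cannot be told apart. The fold changes of H2A.X KO against WT also ran with transcript length, with a Spearman correlation across 12017 genes of 0.50 at D0 and 0.55 at D6, whereas those of BAZ1B KO against WT did not (-0.03 and 0.04); genes are not independent replicates and this is a description. Because GATA1 and LYL1 have short transcripts, H2A.X KO values are also given after a correction for transcript length and GC content where that changed a call.

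GATA1 (ENSG00000102145, chrX:48786540-48794311) was the most abundant of the 10 per length in all 8 groups. With CPM divided by the kilobases of exonic sequence, it stood at a mean of 93.3 CPM per kb ± 3.35 (SD, n = 3) in BAZ1B WT at D0 and 211 CPM per kb ± 5.63 at D6, and at 202 CPM per kb ± 28.0 (SD, n = 2) and 279 CPM per kb ± 32.7 in H2A.X WT. LDB1 came second per length in 6 of the 8 groups, with 82.7 CPM per kb ± 0.964 in BAZ1B WT at D0, and LMO2 came second in both H2A.X WT groups, with 126 CPM per kb ± 16.6 at D0. In H2A.X KO at D6 LDB1 (94.8 CPM per kb ± 13.5) and LMO2 (94.2 ± 3.43) differed by less than their spread. At the low end RUNX1 stood at 5.20 CPM per kb ± 0.0641 and ZFPM1 at 4.06 CPM per kb ± 0.128 in BAZ1B WT at D0, below CBFA2T3 at 10.9 CPM per kb ± 0.247. In H2A.X WT at D0 the neighbours LYL1 (58.8 CPM per kb ± 10.7) and LDB1 (58.0 ± 27.4) differed by less than the spread between subclones, as did LYL1 (67.1 ± 0.233) and LMO2 (66.9 ± 0.446) in BAZ1B WT at D0. Exonic lengths sum all annotated exons, of which RUNX1 has the most, so that its level per length is a low estimate where only some exons are used.

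In the BAZ1B experiment the GATA genes exchanged their rank in reads between D0 and D6, in both genotypes. Per kilobase of exon GATA1 stayed above GATA2 at both days, with means of 93.3 against 54.7 CPM per kb in WT at D0. In WT, GATA2 (ENSG00000179348, chr3:128479427-128493201) stood at 275, 267 and 265 CPM at D0 and at 79.6, 80.7 and 64.5 CPM at D6. GATA1 stood at 151, 143 and 141 CPM at D0 and at 326, 320 and 337 CPM at D6. No library of one day reached the range of the other day for either gene. GATA2 fell by 1.84 on the log2 scale (SE 0.18, 3.59-fold, edgeR adjusted p = 1e-06) and GATA1 rose by 1.18 (SE 0.05, 2.26-fold, adjusted p = 3.64e-10). In BAZ1B KO, GATA2 went from 322, 253 and 288 CPM to 98.6, 56.8 and 56.4 CPM (log2 difference -2.02, SE 0.18, adjusted p = 4.53e-07). GATA1 went from 162, 142 and 152 CPM to 326, 332 and 333 CPM there (log2 difference 1.12, SE 0.05, adjusted p = 5.16e-10). All 10 genes were called in WT, 7 higher and 3 lower at D6, where 33.5% of all tested genes were called higher and 35.4% lower, and 9 of 10 in KO, 6 higher and 3 lower, against 33.2% and 34.5%. The median absolute log2 fold change was 0.84 over the 10 genes and 0.47 over all genes in WT, and 0.60 and 0.45 in KO.

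**Figure D1:**
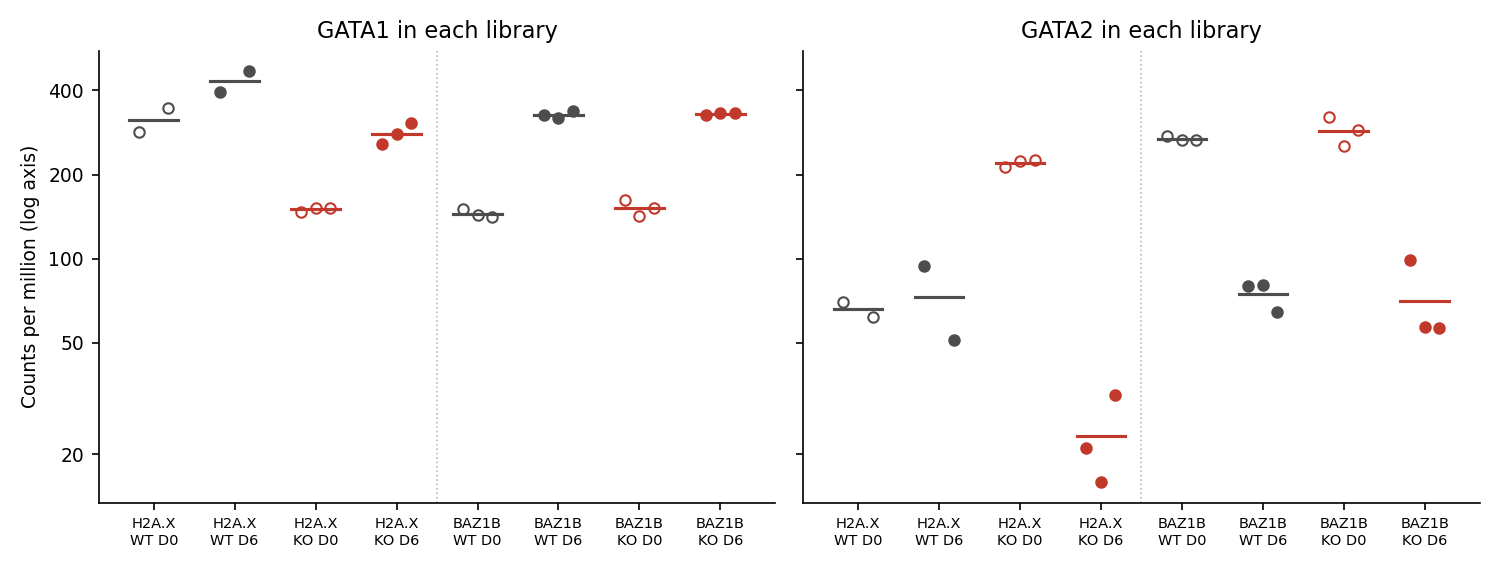
GATA1 (left) and GATA2 (right) in CPM on a log axis, 1 point per library, open at D0 and filled at D6, grey for WT and red for KO, with a bar at the group mean. GATA2 lies at 213 to 322 CPM at D0 in every group other than H2A.X WT, where it lies at 62 and 70.1 CPM.

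In the H2A.X experiment the same exchange was seen in KO and not in WT. In H2A.X KO, GATA2 stood at 213, 225 and 225 CPM at D0 and at 21.0, 15.9 and 32.6 CPM at D6, with no overlap. It fell by 3.25 on the log2 scale (SE 0.29, 9.54-fold, adjusted p = 0.000113), while GATA1 went from 147, 152 and 152 CPM to 256.5, 278 and 306 CPM (log2 fold change 0.90, SE 0.13, adjusted p = 0.00105). In H2A.X WT, GATA2 stood at 70.1 and 62 CPM at D0 and at 94.4 and 51.3 CPM at D6, so that the days overlapped (log2 fold change 0.14, 95% interval -0.50 to 0.79, adjusted p = 0.849). GATA1 stood at 284 and 345 CPM at D0 and at 397 and 468 CPM at D6 without overlap, but did not pass the test (log2 fold change 0.46, 95% interval 0.14 to 0.78, adjusted p = 0.149). Of the 10 genes, 1 was called in WT, where 0.839% of all tested genes were called higher and 1.16% lower. In KO 6 were called, 4 higher and 2 lower, against 14.8% and 16.1% of all tested genes. The same subclone was sampled on both days, and with a term for the subclone all 10 were called in KO, 8 higher and 2 lower, while the count in WT stayed at 1. The same term raised the count over all 13236 tested genes from 4094 to 5095 in KO and from 265 to 1127 in WT.

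**Figure D2:**
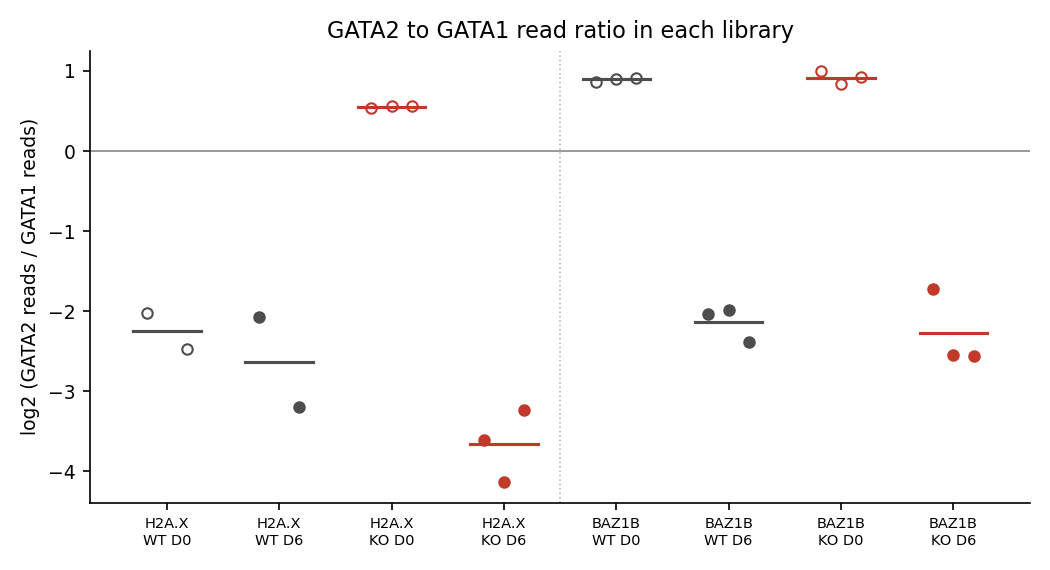
The log2 ratio of GATA2 reads to GATA1 reads in each library, with a bar at the group mean and a line at equal reads, open at D0 and filled at D6. The H2A.X WT libraries at D0 lie below 0 with the D6 libraries, and the other 9 D0 libraries lie above 0.

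The ratio of GATA2 to GATA1 reads, which needs no scaling between libraries, put each library on the same switch. It was 1.82, 1.87 and 1.88 in BAZ1B WT at D0 and 1.99, 1.78 and 1.90 in BAZ1B KO at D0. It was 1.45, 1.48 and 1.47 in H2A.X KO at D0 but 0.247 and 0.180 in H2A.X WT at D0. At D6 it was 0.244, 0.252 and 0.191 in BAZ1B WT, 0.303, 0.171 and 0.170 in BAZ1B KO, 0.238 and 0.110 in H2A.X WT and 0.0819, 0.0569 and 0.107 in H2A.X KO. GATA2 reads thus outnumbered GATA1 reads in 9 of the 11 D0 libraries and in none of the D6 libraries, the exceptions being the H2A.X WT libraries. Per kilobase of exon the ratio was below 1 in every library, and highest at 0.630 in BAZ1B KO replicate 1 at D0. The ratio was 8.17-fold lower at D6 in BAZ1B WT, 9.15-fold in BAZ1B KO and 18.5-fold in H2A.X KO, each with p = 0.10 in a two-sided exact permutation test, the smallest p that 3 against 3 libraries can give. In H2A.X WT it was 1.30-fold lower (exact permutation p = 0.667, where 2 against 2 cannot go below 0.333). Between genotypes it was 6.96-fold higher in H2A.X KO at D0 and 2.04-fold lower at D6, with exact permutation p = 0.20 at both days, again the smallest possible. With the length and GC correction applied to both genes, an alternative chosen after seeing the data, these differences were 4.61-fold and 3.45-fold. Adjusted over all 8 comparisons of the ratio, every one of these p-values was 0.267 or higher.

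Markers of mast cells, basophils and eosinophils, which also use GATA2, moved with it. The summed level of the 8 markers was 467 to 508 CPM in BAZ1B WT at D0 and 30.0 to 40.8 CPM at D6, and 453 to 620 CPM and 12.2 to 38.4 CPM in BAZ1B KO. In H2A.X KO it was 209 to 419 CPM at D0 and 3.08 to 13.5 CPM at D6, whereas in H2A.X WT it was 104 to 140 CPM at D0 and 145 to 232 CPM at D6. At D0, 7 of the 8 markers had over 3 reads in each of the other groups and 4 in H2A.X WT, where CPA3 and HDC had no read, and CLC had no read at D0 in any group. Their part in the GATA2 values was not tested, and in bulk RNA fewer cells of a type and less RNA per cell cannot be told apart.

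At D0 GATA2 was higher and GATA1 lower in H2A.X KO than in WT, and 5 of the 10 genes passed the test. GATA2 was higher by 1.74 on the log2 scale (SE 0.32, 3.34-fold, adjusted p = 0.00685). GATA1 was 2.09-fold lower (log2 fold change -1.06, SE 0.15, adjusted p = 0.00317), as was LMO2 (-1.06, SE 0.24, adjusted p = 0.011), with smaller differences for ZFPM1 (-0.57, SE 0.19, adjusted p = 0.0454) and LYL1 (-0.53, SE 0.16, adjusted p = 0.0303). For these 5 the KO libraries lay outside the WT range. With 3 against 2 libraries this is a weak criterion, and the share over all tested genes was not computed. The 1 gene higher and 4 lower compare with 18.4% and 16.7% of all tested genes. Corrected for transcript length and GC content, GATA2 stood at 1.78 (adjusted p = 0.00579) and ZFPM1 at -0.61 (adjusted p = 0.0344), while GATA1 shrank to -0.43 (adjusted p = 0.0154), LMO2 to -0.65 (adjusted p = 0.0552) and LYL1 to 0.05 (adjusted p = 0.83). The correction also brought TCF3 past the test (-0.40, adjusted p = 0.0456, against -0.32 and 0.11 without it), and took RUNX1 from 0.64 (adjusted p = 0.134) to 0.055 (adjusted p = 0.896). Without WT replicate 2 at D0, GATA2 kept a difference of 1.66 but with an adjusted p of 0.0956, and LMO2 stood at -0.92 with an adjusted p of 0.119.

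At D6 GATA2 was lower in H2A.X KO than in WT, the opposite of D0. It fell by 1.66 relative to WT (SE 0.30, 3.15-fold, adjusted p = 0.0042), and the KO libraries at 15.9 to 32.6 CPM lay below both WT libraries. GATA1 (-0.63, SE 0.15, adjusted p = 0.00819) and LYL1 (-1.07, SE 0.16, adjusted p = 0.00352) were also lower, so that 3 of 10 genes were called, all lower, where 22.2% of all tested genes were higher and 20.9% lower. The difference between the KO effects at D6 and D0 was -3.40 for GATA2 (SE 0.44, adjusted p = 0.00751), the 1 gene of the 10 called in this test, in which 0.302% of all tested genes were called higher and 1.04% lower. With a term for the subclone ZFPM1 was called in it too (1.05, adjusted p = 0.0401), and with the length and GC correction GATA1 was (0.73, adjusted p = 0.0357, against 0.44 and 0.36 without it). With the length and GC correction GATA2 stood at -1.49 at D6 (adjusted p = 0.00934), whereas GATA1 changed sign to 0.30 (adjusted p = 0.0526) and LYL1 stood at -0.25 (adjusted p = 0.193). The KO library at D6 without the redone mark, replicate 3, stood at 32.6 CPM for GATA2, below both WT libraries too. That is the highest KO value, and 1 library cannot tell this mark and the genotype apart. Without WT replicate 2 at D6, GATA1 stood at -0.47 (adjusted p = 0.111) and LYL1 at -0.83 (adjusted p = 0.0612). Without WT replicate 1 at D0 the GATA2 difference between days was -3.48 with an adjusted p of 0.0758, and without WT replicate 2 at D0 it was -3.30 with an adjusted p of 0.0728.

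**Figure D3:**
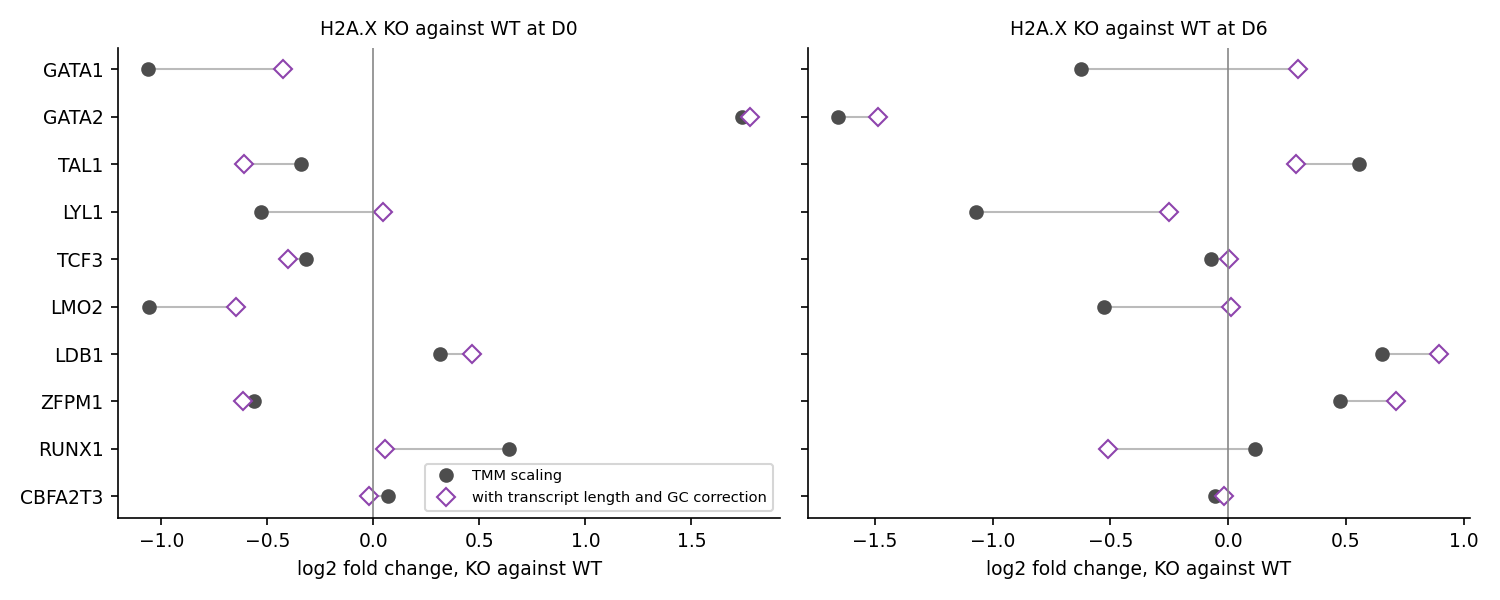
Log2 fold change of H2A.X KO against WT for the 10 genes at D0 (left) and D6 (right), as filled circles after TMM scaling and as open diamonds after a further correction for transcript length and GC content. GATA2 lies beyond 1 on the same side of 0 both ways on each day, while GATA1 crosses 0 at D6 and LYL1 at D0.

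The loss of BAZ1B left both GATA genes near their WT levels. At D0 none of the 10 genes was called by edgeR, where 1.25% of all tested genes were higher and 2.64% lower; 2 of the 10, LMO2 and LDB1, had an unadjusted p below 0.05, and DESeq2 called 0. GATA1 differed by 0.07 on the log2 scale (95% interval -0.03 to 0.16) and GATA2 by 0.10 (95% interval -0.24 to 0.43). The KO subclones spread more than WT, with GATA2 at 253 to 322 CPM against 265 to 275 CPM, and LMO2 at 196, 154 and 162 CPM against 192.5 to 195 CPM. Without KO replicate 1 at D0, LMO2 stood at -0.30 with an adjusted p of 0.00037. At D6 the interval for GATA1 was -0.08 to 0.10 and that for GATA2 -0.43 to 0.27. GATA2 was 98.6 CPM in KO replicate 1 and 56.8 and 56.4 CPM in the other KO replicates, and without replicate 1 it stood at -0.40 (adjusted p = 0.0294).

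At D6, 2 of the 10 genes were higher in BAZ1B KO, where 6.87% of all tested genes were higher and 5.97% lower. RUNX1 (ENSG00000159216, chr21:34787801-36004667), a RUNX factor needed for the first blood stem cells and for megakaryocytes, stood at 38.8, 41.1 and 32.9 CPM in WT and at 54.8, 56.4 and 52.2 CPM in KO. It was higher by 0.54 on the log2 scale (SE 0.08, 1.45-fold, adjusted p = 0.00119). ZFPM1 (ENSG00000179588, chr16:88453280-88537031), the cofactor that GATA1 binds through its amino-terminal finger, stood at 67.8, 67.5 and 75.8 CPM in WT and at 82.3, 89.6 and 87.8 CPM in KO, higher by 0.30 (SE 0.06, 1.23-fold, adjusted p = 0.00614). Neither gene's groups overlapped, and both calls held in every fit that left out 1 library. The summed megakaryocyte markers, a lineage in which RUNX1 also acts, were 8.44 to 10.5 CPM in WT and 1.48 to 4.80 CPM in KO at D6, and their part in the RUNX1 values was not tested. At D0 both overlapped between genotypes, RUNX1 at 79.9 to 81.9 CPM in WT and 74.2 to 91.3 CPM in KO. RUNX1 was the 1 gene of the 10 whose KO effect differed between days (0.53, SE 0.12, adjusted p = 0.0333), where 1.58% of all tested genes were called higher and 0.893% lower. That call was lost in 8 of the 12 fits without 1 library, with adjusted p-values up to 0.0946.

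**Figure D4:**
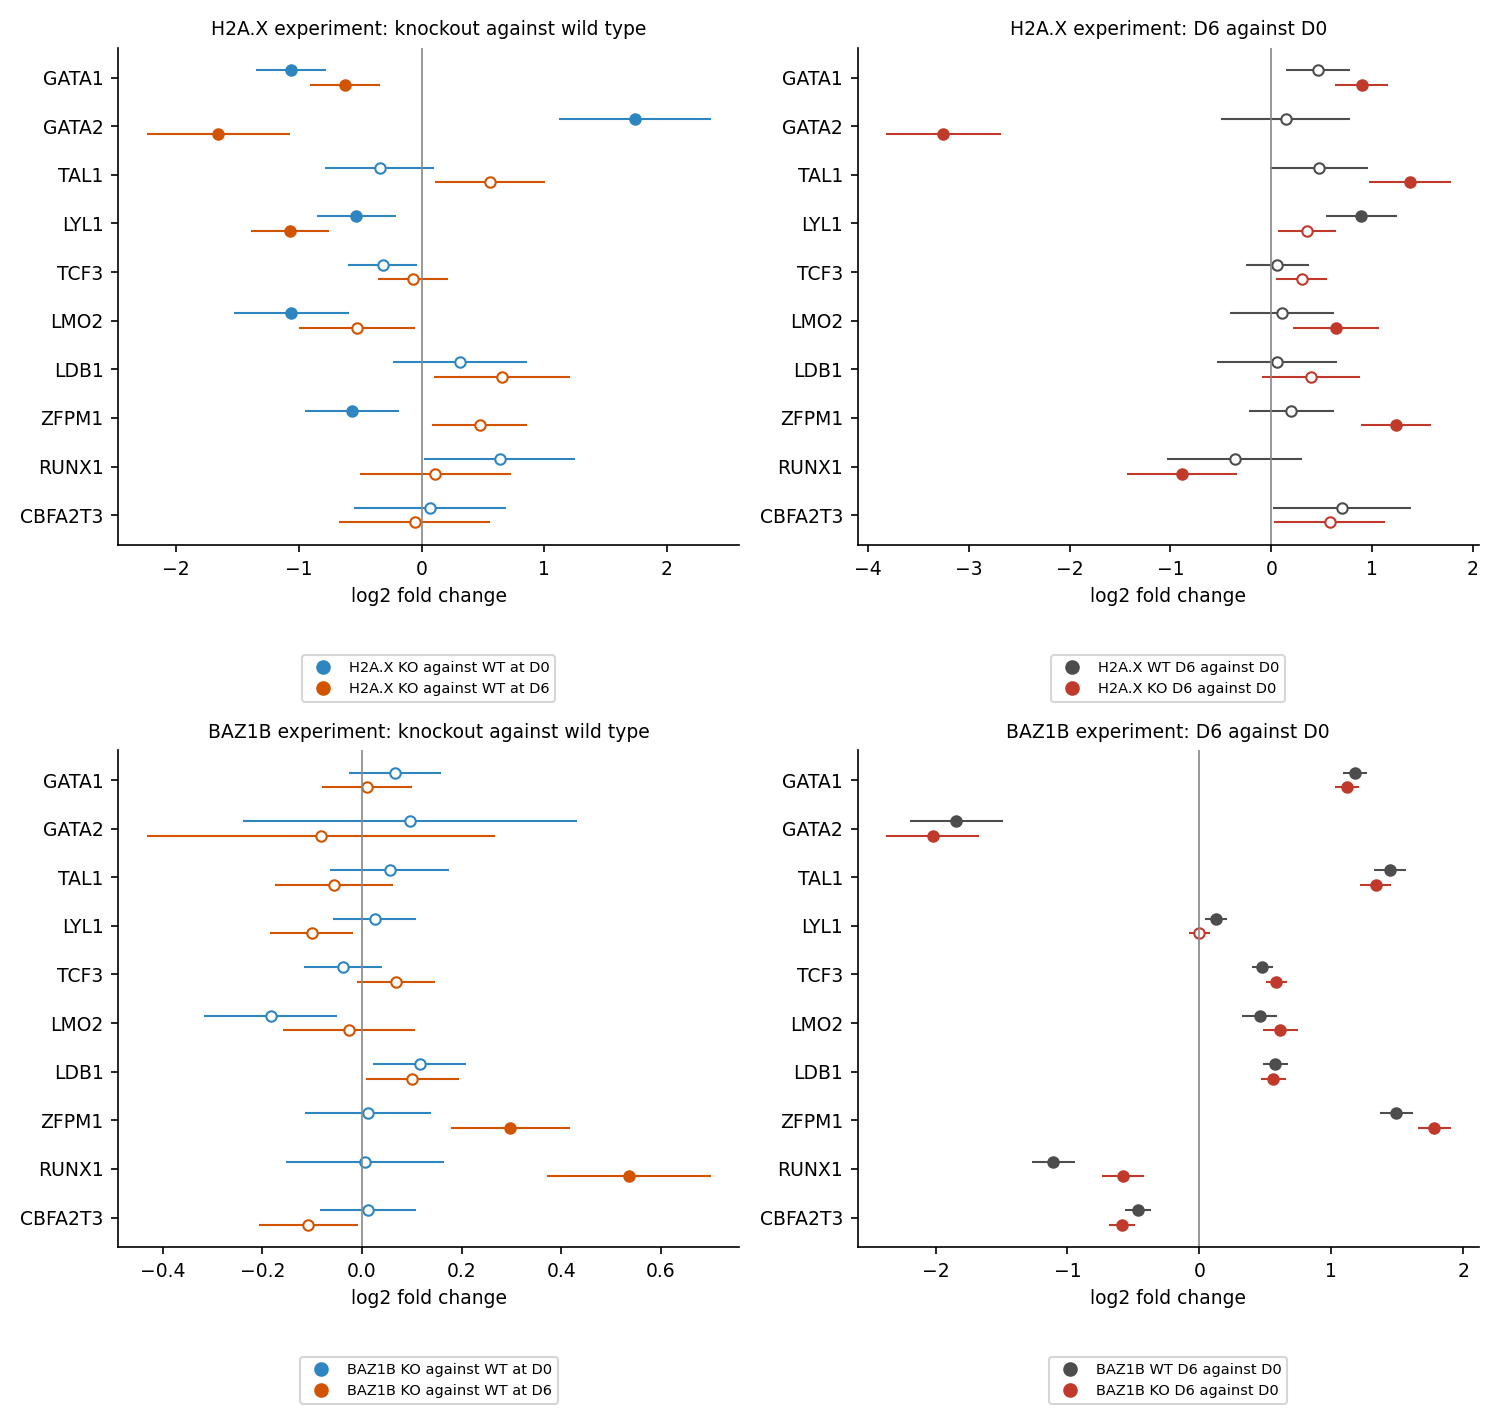
Log2 fold changes of the 10 genes with 95% intervals, for KO against WT (left) and D6 against D0 (right) in the H2A.X (top) and BAZ1B (bottom) experiments, filled where the adjusted p is below 0.05. The horizontal scales differ: estimates for BAZ1B KO against WT span less than 1 unit, with RUNX1 at 0.54 and ZFPM1 at 0.30 at D6.

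TAL1 (ENSG00000162367, chr1:47216290-47232225), the basic helix-loop-helix factor of the complex, rose from D0 to D6 in 3 of the 4 genotype groups. In BAZ1B WT it went from 153, 154 and 145 CPM to 397, 390 and 445 CPM (log2 fold change 1.45, SE 0.06, adjusted p = 5.76e-10). In BAZ1B KO the change was 1.34 (SE 0.06, adjusted p = 1.12e-09). In H2A.X KO it went from 181, 151 and 143 CPM to 353, 559 and 319 CPM (1.37, SE 0.21, adjusted p = 0.00112). In H2A.X WT it went from 199 and 202 CPM to 261 and 298 CPM (0.48, 95% interval -0.01 to 0.96, adjusted p = 0.308). At D6 all 3 H2A.X KO libraries lay above both WT libraries, with replicate 2 the highest, but the difference of 0.56 did not pass the test (SE 0.23, adjusted p = 0.073). It passed with the replicate number as a block (0.65, adjusted p = 0.0256), with DESeq2 (0.59, adjusted p = 0.0422), with no filter (0.61, adjusted p = 0.017) and without KO replicate 3 at D6 (0.74, adjusted p = 0.0169). It did not pass at 0.44 with upper-quartile scaling (adjusted p = 0.118) or at 0.29 after the length and GC correction (adjusted p = 0.364). An unnamed antisense RNA gene shares 845 exonic bases with TAL1, and if the counting did not use strand their reads cannot be told apart; the kit is named as stranded in the study's methods and not in the labels.

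LYL1 (ENSG00000104903, chr19:13099033-13103161), the TAL1 paralogue whose promoter window held 2 GATA words, followed another course. In BAZ1B WT it went from 210, 209 and 209 CPM to 229, 215 and 242 CPM (log2 fold change 0.13, SE 0.04, adjusted p = 0.017), a call lost without WT replicate 3 at D6 (adjusted p = 0.061). In BAZ1B KO it stood at 213, 207 and 219 CPM at D0 and at 214, 216 and 210 CPM at D6, a log2 difference of 0.00 (95% interval -0.08 to 0.08). The days thus differed by at most 1.09-fold in either genotype of that experiment, while TAL1 rose 2.73-fold in WT and 2.52-fold in KO. In H2A.X WT, LYL1 went from 160 and 207 CPM to 294.5 and 387.5 CPM and was the 1 gene of the 10 called between days there (0.89, SE 0.18, adjusted p = 0.04), a call lost without any of 6 of the 10 libraries. In H2A.X KO it went from 130, 126 and 124 CPM to 174, 162 and 151 CPM without overlap (0.36, SE 0.15, adjusted p = 0.0933, or 0.0277 with a term for the subclone). TCF3 (ENSG00000071564, chr19:1609291-1652615), which encodes the E proteins E12 and E47 that pair with TAL1, rose by 0.48 in BAZ1B WT (SE 0.04, adjusted p = 2.32e-07) and by 0.58 in BAZ1B KO (SE 0.04, adjusted p = 3.62e-08). Its levels at D6 were 676 to 712 CPM in BAZ1B WT and 700 to 751 CPM in KO, against 469 to 501 CPM in H2A.X WT and 415 to 496 CPM in KO. In H2A.X KO the rise of 0.30 passed the test with a term for the subclone (adjusted p = 0.0451) and not without it (adjusted p = 0.105). With the length and GC correction TCF3 (0.50, adjusted p = 0.00874) and LYL1 (0.38, adjusted p = 0.0376) were called between days in H2A.X KO.

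**Figure D5:**
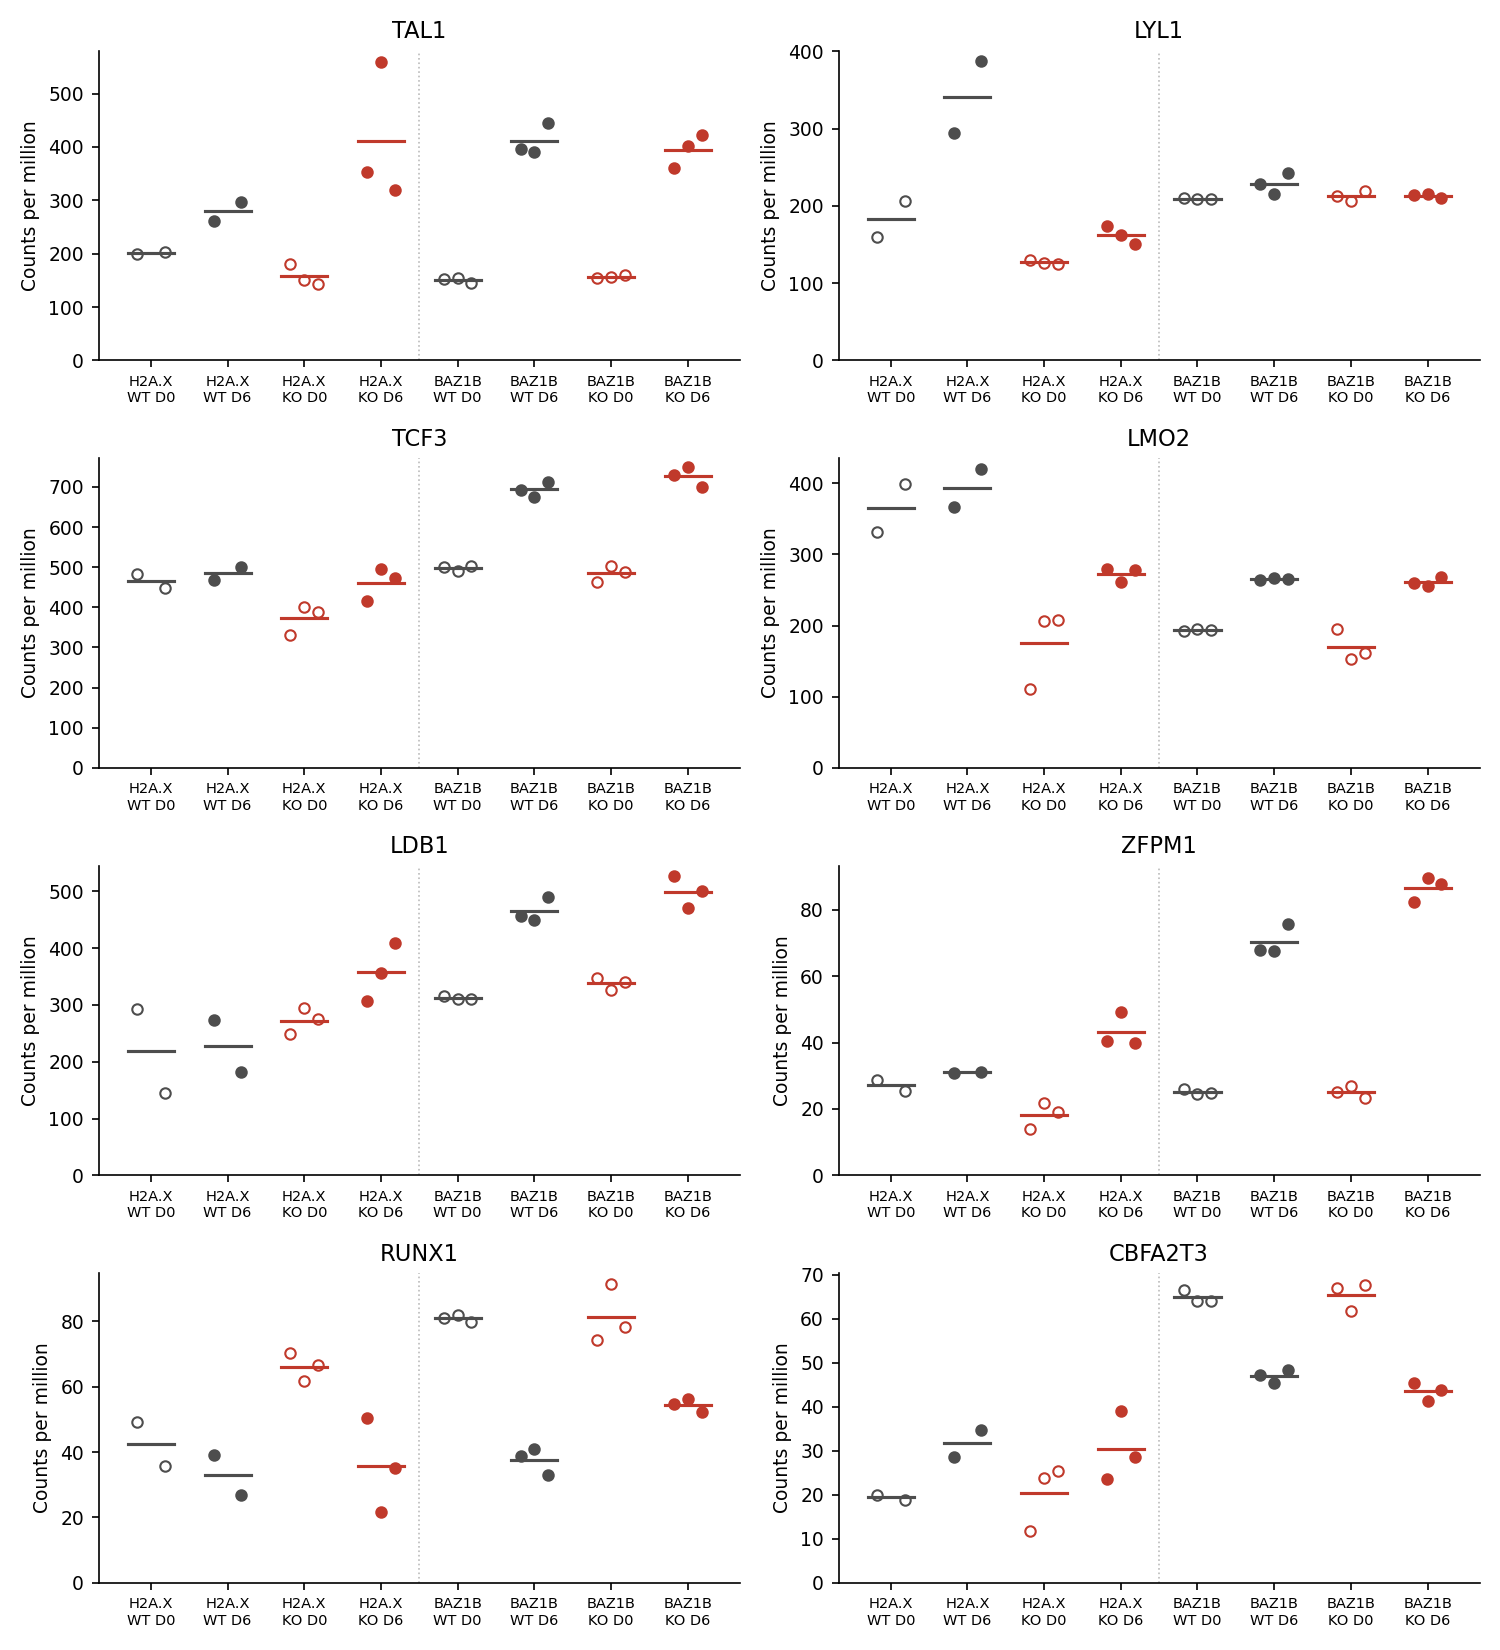
The other 8 genes in CPM, 1 point per library, open at D0 and filled at D6, grey for WT and red for KO, with a bar at the group mean and each axis starting at 0. TAL1 and ZFPM1 rise at D6 in 3 of the 4 genotype groups, LYL1 is highest in H2A.X WT at D6, and LDB1 differs widely between the 2 H2A.X WT subclones.

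The bridge proteins LMO2 and LDB1 rose together in the BAZ1B experiment. LMO2 (ENSG00000135363, chr11:33858576-33892076), the LIM-only protein that binds TAL1, went from 192.5 to 195 CPM to 265 to 267 CPM in WT (log2 fold change 0.46, SE 0.07, adjusted p = 5.17e-05) and rose by 0.61 in KO (SE 0.07, adjusted p = 3.7e-06). LDB1 (ENSG00000198728, chr10:102106489-102120368), which dimerizes to hold distant elements together, went from 310 to 316 CPM to 450 to 490 CPM in WT (0.58, SE 0.05, adjusted p = 2.04e-07) and rose by 0.56 in KO (SE 0.05, adjusted p = 2.73e-07). In the H2A.X experiment LMO2 stood at 331 and 399 CPM in WT and at 111, 206 and 208 CPM in KO at D0, where KO replicate 1 was the lowest. It rose in KO to 279, 261 and 278 CPM (0.64, SE 0.22, adjusted p = 0.0473), a call that was lost without any 1 of the 10 libraries (adjusted p 0.0528 to 0.0963) and held with a term for the subclone (adjusted p = 0.0181). LDB1 differed between the H2A.X WT subclones at both days, at 292 and 146 CPM at D0 and 274 and 181 CPM at D6. Its KO difference at D0 was 0.32 (adjusted p = 0.395), and -0.10 without WT replicate 2 but 0.90 (adjusted p = 0.0325) without WT replicate 1. At D6 KO stood at 308, 356 and 410 CPM, above both WT libraries (0.65, SE 0.28, adjusted p = 0.0847). That difference passed the test with the length and GC correction (0.90, adjusted p = 0.0352), with DESeq2 (0.68, adjusted p = 0.0456), with no filter (0.69, adjusted p = 0.00531) and without either WT library of D0 (0.66, adjusted p = 0.0291 and 0.0292). With upper-quartile scaling it did not (0.55, adjusted p = 0.147).

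ZFPM1 showed the largest rise of the 10 genes from D0 to D6 in both BAZ1B genotypes. It went from 25.9, 24.4 and 24.7 CPM to 67.8, 67.5 and 75.8 CPM in WT (log2 fold change 1.49, SE 0.06, adjusted p = 5.5e-10) and rose by 1.78 in KO (SE 0.06, 3.43-fold, adjusted p = 1.51e-10). In H2A.X KO it went from 14.1, 21.7 and 19.1 CPM to 40.4, 49.2 and 39.8 CPM (1.24, SE 0.18, adjusted p = 0.000876), but it stood at 28.7 and 25.5 CPM and then 31 and 31.2 CPM in H2A.X WT (0.20, 95% interval -0.23 to 0.62, adjusted p = 0.654). KO was thus below WT at D0 and above it at D6, with no overlap at either day. The D6 difference did not pass the test (0.47, SE 0.20, adjusted p = 0.0755), except with the length and GC correction (0.71, adjusted p = 0.0214). The difference between days did not pass it either (1.04, SE 0.28, adjusted p = 0.106). It passed with a term for the subclone, with the length and GC correction (1.33, adjusted p = 0.035), with DESeq2 (1.06, adjusted p = 0.0215), with no filter (1.09, adjusted p = 0.0305) and without KO replicate 3 at D6 (1.13, adjusted p = 0.0491). The D0 call was lost in 7 of the 10 fits that left out 1 library.

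RUNX1 and CBFA2T3 were the other genes that fell during maturation in the BAZ1B experiment. RUNX1 fell by 1.11 in WT (SE 0.08, 2.16-fold, adjusted p = 8.55e-08) and by 0.58 in KO (SE 0.08, 1.49-fold, adjusted p = 3.51e-05). In H2A.X KO it went from 70.3, 61.7 and 66.6 CPM to 50.6, 21.5 and 35.2 CPM (-0.89, SE 0.28, adjusted p = 0.0349), a call lost in 5 of 10 fits without 1 library, and in H2A.X WT from 49.1 and 35.8 CPM to 39.1 and 26.9 CPM (-0.36, adjusted p = 0.592). CBFA2T3 (ENSG00000129993, chr16:88874858-88977207), the ETO-family corepressor of the complex, stood at 66.5, 64.1 and 63.9 CPM in BAZ1B WT at D0 and at 47.1, 45.3 and 48.3 CPM at D6. It fell by 0.47 there (SE 0.05, adjusted p = 2.48e-06) and by 0.59 in BAZ1B KO (SE 0.05, adjusted p = 2.99e-07). In the H2A.X experiment its levels were lower, at 18.9 and 19.97 CPM in WT and 11.8 to 25.4 CPM in KO at D0, and its values moved up, not down, from D0 to D6. The rise was 0.70 in WT (95% interval 0.02 to 1.38, adjusted p = 0.284) and 0.58 in KO (95% interval 0.03 to 1.13, adjusted p = 0.146, or 0.0254 with a term for the subclone). The difference in direction between the experiments was not tested. An antisense RNA gene shares 501 exonic bases with CBFA2T3, and GATA2-AS1 shares 78 with GATA2.

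Among 22 further members of these families and partners (16 tested in the H2A.X table, 17 in that of BAZ1B), CBFB and RUNX2 had the largest falls between days in the 3 groups other than H2A.X WT. CBFB, the subunit that RUNX proteins need for stable DNA binding, fell from a mean of 70.9 CPM ± 0.736 (SD, n = 3) to 3.45 CPM ± 0.668 in BAZ1B WT (log2 fold change -4.37, SE 0.15, adjusted p = 1.05e-10). It fell in the other groups too, by 5.14 in BAZ1B KO (SE 0.16, adjusted p = 4.97e-11), by 4.65 in H2A.X KO (SE 0.46, adjusted p = 0.000163) and by 3.15 in H2A.X WT (SE 0.55, adjusted p = 0.0282), where few genes were called. RUNX2 went from a mean of 18.01 CPM to 0.689 CPM in BAZ1B WT and from 17.1 to 0.0279 CPM in BAZ1B KO, while RUNX1T1, a CBFA2T3 paralogue, was at most 0.206 CPM in mean at D0 in those groups and in H2A.X KO, and at 0.274 to 4.33 CPM at D6. Between genotypes RUNX2 was higher in H2A.X KO at D0 and lower at D6 (edgeR adjusted p = 0.00784 and 0.00793). It was also lower in BAZ1B KO at D6 (adjusted p = 0.000257). ZFPM2, the ZFPM1 paralogue, was the largest difference of the list in BAZ1B KO at D0, at 0.185 CPM against 5.70 CPM in WT at D0 (-4.92, SE 0.25, adjusted p = 1.3e-07) and 0.997 against 6.67 CPM at D6 (-2.73, SE 0.20, adjusted p = 3.24e-06). In H2A.X KO it was lower at D0 as well (-3.06, SE 0.62, adjusted p = 0.00868), and LMO3, an LMO2 paralogue, was lower at both days (-1.68 and -1.38, adjusted p = 0.00792 and 0.00901). RUNX3 was higher in both knockouts at D0, by 3.74 in H2A.X KO (adjusted p = 0.00555) and by 0.71 in BAZ1B KO (adjusted p = 0.0145), and by 0.93 in BAZ1B KO at D6 (adjusted p = 0.0171). In H2A.X at D6 it stood at a mean of 1.74 CPM in KO, with at most 2 reads in a WT library. GATA5 rose with maturation in all 4 genotype groups, from 3.99 to 20.9 CPM in mean in BAZ1B WT (2.39, SE 0.12, adjusted p = 1.81e-09). Over the list 7 were called higher and 7 lower between days in BAZ1B WT (33.5% and 35.4% of all tested genes), 10 and 6 in BAZ1B KO (33.2% and 34.5%), 1 and 1 in H2A.X WT (0.839% and 1.16%) and 6 and 5 in H2A.X KO (14.8% and 16.1%). Between genotypes 5 were higher and 6 lower in H2A.X KO at D0 (18.4% and 16.7% of all tested genes) and 6 and 4 at D6 (22.2% and 20.9%). In BAZ1B KO 1 was higher and 1 lower at D0 (1.25% and 2.64%), and 6 and 5 at D6 (6.87% and 5.97%).

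Of 18 subunits of the corepressors that GATA1 and TAL1 are known to recruit (NuRD, LSD1-CoREST, SIN3A and NCOR), all were tested, and 5 were higher and 3 lower in H2A.X KO at each day. Of all tested genes 18.4% were higher and 16.7% lower at D0, and 22.2% and 20.9% at D6. NCOR1 was higher at D0 and D6 (log2 fold changes 1.32 and 1.75, adjusted p = 0.0117 and 0.00418), while the NuRD subunits CHD4 (-1.12 and -1.44, adjusted p = 0.00793 and 0.00354) and MBD3 (-1.01 and -1.15, adjusted p = 0.0136 and 0.00647) were lower. In BAZ1B KO, 1 was called at D0, against 1.25% of all tested genes higher and 2.64% lower. At D6 edgeR called 0, against 6.87% and 5.97%, where 3 had an unadjusted p below 0.05 and DESeq2 called 2. Between days 13 were called in BAZ1B WT, 6 higher and 7 lower, against 33.5% and 35.4% of all tested genes, the largest being MTA3 at -0.54 (adjusted p = 0.000712). In H2A.X KO 2 were called, against 14.8% higher and 16.1% lower. The list's median log2 fold change lay between -0.13 and 0.13 in every comparison.

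Of 17 erythroid genes that GATA1 is known to activate, all 17 rose from D0 to D6 in both BAZ1B genotypes, with medians of 1.78 in WT and 1.64 in KO against -0.02 in WT over all tested genes, of which 33.5% were called higher in WT and 33.2% in KO. In H2A.X KO 16 rose (median 1.66), against 14.8% of all tested genes. In H2A.X WT 0 were called by edgeR or DESeq2, with 5 at an unadjusted p below 0.05 and a median of 0.79. At D0 12 of the 17 were lower and 1, ANK1, was higher in H2A.X KO than in WT (median -1.03), against 16.7% of all tested genes lower and 18.4% higher. HBA1, an alpha globin gene that shares reads with the near-identical HBA2, stood at -2.74 (SE 0.51, adjusted p = 0.00713). GATA1 was lower in the same libraries, and its part in the lower values of this list was not tested. Fold changes of this comparison ran with transcript length (Spearman correlation 0.50), and these list values are given without the length and GC correction. At D6, 4 were higher and 1 lower (median 0.01), where 22.2% of all tested genes were higher and 20.9% lower. In BAZ1B KO 1 was higher and 3 lower at D0 and 0 were higher and 7 lower at D6 (medians -0.09 and -0.24), against 1.25% and 2.64% of all tested genes at D0 and 6.87% and 5.97% at D6. SLC4A1, the anion exchanger of the red cell membrane, stood at -2.88 at D0 (SE 0.25, adjusted p = 2.53e-05) and -0.77 at D6 (SE 0.19, adjusted p = 0.0185) in BAZ1B KO. GATA1 did not pass the test there at either day, and the cause of the SLC4A1 difference was not tested. SLC4A1 was lower in H2A.X KO at D0 too (-2.75, SE 0.84, adjusted p = 0.0302). The list of 17 genes and the next one were chosen with earlier results of these data known. Their changes between days are thus a description and not independent evidence. Of 12 genes of earlier haematopoietic cells, listed as genes that fall with erythroid maturation, 7 were tested. In BAZ1B WT 5 of them fell and 2 rose, led by VIM, the intermediate filament gene, at -6.92 (SE 0.37, adjusted p = 3.18e-09) and SPI1, the myeloid factor PU.1, at -4.30 (SE 0.19, adjusted p = 8.02e-10), and the counts were the same in BAZ1B KO. Of all tested genes 35.4% fell and 33.5% rose in WT, and 34.5% and 33.2% in KO. In H2A.X KO 6 fell and 1, CCND2, rose, against 16.1% and 14.8% of all tested genes. KIT, the receptor for stem cell factor and a gene that GATA2 is known to activate, was higher in H2A.X KO at D0 (1.63, SE 0.40, adjusted p = 0.0138), with SPI1 (2.34-fold, adjusted p = 0.0286). At D0 3 of the 7 were higher in H2A.X KO, against 18.4% of all tested genes. The 1 lower was CCND2 (-1.49, SE 0.16, adjusted p = 0.00122), against 16.7%. At D6 0 were higher and 2, VIM and CCND2, were lower, against 22.2% and 20.9%. In BAZ1B KO against WT edgeR and DESeq2 called 0 at D0, where 2 had an unadjusted p below 0.05. At D6 3 were higher and 0 lower, against 6.87% and 5.97%. The largest were VIM (1.58, SE 0.33, adjusted p = 0.00694) and KIT (0.60, SE 0.16, adjusted p = 0.0226).

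The genes whose levels ran most closely with the GATA genes and TAL1 were found over all 22 libraries, with log2 CPM centred within each experiment, among 8155 genes. For GATA1 they were TSTA3, BLVRB, GPKOW, PPP6R2 and PPOX (Pearson r 0.989 to 0.985), of which BLVRB and PPOX encode enzymes of heme breakdown and heme synthesis. For GATA2 they were SAMD5, CDK15, TPSD1, IL4R and SAMSN1 (0.973 to 0.957), of which TPSD1 encodes a mast cell tryptase. For TAL1 they were CA1, an erythroid carbonic anhydrase, DCAF11, NCAPG, ASF1A and SLC30A1 (0.987 to 0.983). The libraries share their days and genotypes, and these values are a description. GATA1 and GATA2 themselves had an r of -0.77, and GATA1 and TAL1 an r of 0.81.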

How the data were processed

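RNA was sequenced from 22 libraries, 10 of the H2A.X and 12 of the BAZ1B experiment. The authors deposited raw read counts per gene name in 1 table for each experiment, and the submitters' processing notes name STAR 2.7.0f, Subread 1.6.4 with featureCounts and DESeq2 1.22.1, with the hg38 genome. The strand setting of the counting is not given in the sources used here. Each table was filtered with edgeR's filterByExpr (at least 10 counts in enough libraries and 15 in total), scaled by TMM and tested with edgeR 4.0.16 (R 4.3.3) by quasi-likelihood, with 1 fit over all 4 groups of an experiment and Benjamini-Hochberg adjustment over all tested genes at 0.05. The fit was tested on simulated data. The 95% intervals are normal intervals from the SE, unadjusted for the number of genes, and so can exclude 0 where the adjusted p does not pass. CPM were computed on the scaled libraries. Gene positions and exonic lengths are those of GENCODE v44 on GRCh38, matched by name.

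Members, lists and markers were chosen with earlier results of these data known. All 10 genes are given in every comparison; of each further list, at most the 2 largest called changes in each direction were named per comparison. KIT, ZFPM2, CBFB and the other listed genes follow that rule, and values of RUNX1T1, RUNX2 and RUNX3 near 3 reads are given as levels. Some single genes of the lists are not reported here. Genes most like GATA1, GATA2 and TAL1 were the 5 with the highest Pearson r on log2(CPM + 0.5), among those with a mean of at least 10 CPM in both experiments. The ratio of GATA2 to GATA1 reads was compared by two-sided exact permutation tests on its log2.

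Subclone numbers are shared between groups. Same-numbered D0 and D6 libraries deviated together in H2A.X WT and KO (correlations 0.306 to 0.606) and in BAZ1B KO (0.161 to 0.659) but not in every pair of BAZ1B WT (0.0125 to 0.183), and same-numbered KO and WT libraries, which are different subclones, had correlations of 0.0671 to 0.213 in H2A.X and -0.0461 to 0.185 in BAZ1B, not above 0.1 in every pair. No p-value has replicates beyond these subclones, and it measures the spread between their libraries. BAZ1B WT libraries of the same day had a median chi-square per gene of 0.891 to 1.77 between pairs. It was 1.37 to 5.18 in BAZ1B KO and 1.33 to 16.8 in the H2A.X experiment. Whether the small spread of BAZ1B WT is that of separate subclones was not tested. Alternatives were DESeq2 1.42.0, upper-quartile scaling, no filter, a stricter threshold (adjusted p under 0.001 with a log2 change past 1.5 either way), a length and GC correction, a replicate block (a term for each subclone in comparisons between days and in their difference, and for the shared replicate number in KO against WT), each day alone, and leaving out each library.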

Additional observations from a re-analysis of the deposited data

Results flagged for a closer look

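The effect of the H2A.X knockout on GATA2 differed between days by -3.40 on the log2 scale in a test of the difference itself (edgeR adjusted p = 0.00751), with KO above WT at D0 in 3 of 3 subclones and below it at D6 in 3 of 3. Markers of mast cells, basophils and eosinophils moved in the same way, and their part in this was not tested. Over the fits that each left out 1 library the GATA2 difference was -3.74 to -2.87, and WT held only 2 subclones.

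The effect of the BAZ1B knockout on RUNX1 differed between days by 0.53 (edgeR adjusted p = 0.0333), with overlapping genotypes at D0 and KO above WT in 3 of 3 subclones at D6. That call was lost in 8 of the 12 fits that left out 1 library.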

How the results depend on the processing

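Over the 10 genes, the comparisons and the other settings, 562 values kept their direction and side of the threshold, 39 lost and 27 gained the call and 12 changed sign. With the stricter threshold the genes called were 22 (H2A.X KO at D0), 20 (KO at D6), 0 (WT between days), 426 (KO between days) and 0 (difference between days), and 50, 104, 1627, 1593 and 4 for BAZ1B in the same order, of which 0, 0, 0, 1 and 0, and 0, 0, 1, 2 and 0, were among the 10. Without a filter they were 1271 in H2A.X WT between days, 1007 for its difference between days (against 265 and 177), 1201 in BAZ1B KO at D0 and 987 for its difference, with 5 of the 10 called in H2A.X KO at D6, 3 for its difference, and 1 and 2 in BAZ1B KO at D0 and for its difference. DESeq2 called 1067 genes in H2A.X WT between days, 680 for the H2A.X and 700 for the BAZ1B difference between days, and 5 and 2 of the 10 in H2A.X KO at D6 and for its difference. Fitted alone, D6 gave 3731 genes in H2A.X KO. The length and GC correction gave 3458 genes in H2A.X KO at D6 and 3 of the 10 for the difference between days. Under it LYL1 (0.046) and CBFA2T3 (-0.022) changed sign at D0, GATA1 (0.30), LMO2 (0.013), RUNX1 (-0.51) and TCF3 (0.0056) at D6, CBFA2T3 (0.0063) in the difference, and LYL1 in BAZ1B KO between days (-0.0063). It also took the H2A.X KO difference in the log2 ratio of GATA2 to GATA1 at D0 from 2.80 to 2.20, an alternative chosen after seeing the data. With upper-quartile scaling CBFA2T3 in H2A.X KO at D0 (-0.012), GATA1 in BAZ1B KO at D6 (-0.012) and LYL1 in BAZ1B KO between days (-0.021) did. The cause of these changes was not tested. The fit without a filter tested every gene with any read, so its counts are over more genes. Here and below, a count of the 10 without a count over all tested genes describes only how these calls moved.

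With the replicate block 5 of the 10 were called in H2A.X KO at D6 (TAL1 and LMO2 gained), 10 in H2A.X KO between days and 2 for the H2A.X difference, while all genes called were 1127 in H2A.X WT between days and 552 and 718 for the H2A.X and BAZ1B differences, and CBFA2T3 in H2A.X KO at D0 changed sign to -0.091. RUNX1 was gained at D0 (0.65, adjusted p = 0.0409).

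Leaving out 1 library at a time moved the counts most where a WT library of the H2A.X experiment was removed. Genes called ranged from 77 (without WT replicate 2 at D0) to 5642 in H2A.X KO at D0, from 152 (without WT replicate 2 at D6) to 6656 at D6, from 1 to 655 in WT between days, from 2641 to 4871 in KO between days and from 6 to 851 for the difference. For BAZ1B they ranged from 258 to 1323, 1112 to 2443, 8946 to 10070, 8876 to 9487 and 119 to 765. Of the 10 genes, 1 to 5, 1 to 4, 0 to 1, 4 to 5 and 0 to 2 were called in H2A.X, and 0 to 1, 2 to 3, 9 to 10, 9 and 0 to 2 in BAZ1B. In these fits 1007 values kept direction and call, 47 lost and 10 gained it and 36 changed sign. None of the values that changed sign had been called. In H2A.X KO at D0 they were LDB1 (-0.10 to 0.90) and CBFA2T3 (-0.12 to 0.34), and at D6 RUNX1 (-0.22 to 0.43), CBFA2T3 (-0.28 to 0.12) and TCF3 (-0.13 to 0.0044). In H2A.X WT between days they were GATA2 (-0.38 to 0.49), LMO2 (-0.033 to 0.24), LDB1 (-0.37 to 0.64), TCF3 (-0.012 to 0.10) and the log2 ratio of GATA2 to GATA1 (-0.94 to 0.18), and for the difference LDB1 (-0.24 to 0.76) and CBFA2T3 (-0.40 to 0.064). In BAZ1B they were ZFPM1 (-0.044 to 0.063), RUNX1 (-0.088 to 0.067), CBFA2T3 (-0.013 to 0.051) and the log2 ratio (-0.015 to 0.067) in KO at D0, then GATA1 (-0.012 to 0.024), TAL1 (-0.11 to 0.0046), GATA2 (-0.40 to 0.051) and the log2 ratio (-0.42 to 0.0013) at D6, then LYL1 (-0.018 to 0.023) in KO between days, then LDB1 (-0.055 to 0.018) for the difference.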
